A study of Mus musculus with 8 samples.

Results

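The GC-rich mouse miRNAs mmu-miR-3960, mmu-miR-5126, mmu-miR-5107-5p, mmu-miR-5112 and mmu-miR-6366 were followed array by array in the skin of mice with and without induced loss of Ncstn. They are 5 of the 1881 miRNAs on the array, taken by name, and were chosen by their measured levels on these arrays, which had been seen to differ between replicates of 1 group. That spread is therefore given here as a description, with no test. All 5 were among the 222 miRNAs detected on every array of at least 1 group, which is the set that was tested.

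RNA came from skin of male mice carrying floxed Ncstn alleles and a Krt14-CreER transgene (Ncstn flx/flx; Krt14 CreER+/-), and 4 arrays represent each of the 2 groups. The NcstnΔKC mice were given tamoxifen at 20 mg/kg per day by oral gavage for 5 days from 8 weeks of age and then every 10 days. The normal mice had the same genotype and were given corn oil, so an effect of tamoxifen itself and one of Ncstn deletion cannot be told apart. At 16 weeks of age lesional skin was taken, per the labels, and small RNA was read on 1-colour Agilent miRNA arrays. Ncstn encodes nicastrin, a γ-secretase subunit, and the Krt14 promoter drives CreER in basal keratinocytes. These miRNA arrays carry no probe for the Ncstn transcript, and deletion was not checked. The labels do not state that each of the 4 samples is a different mouse, and p-values then measure only the spread between these samples. In whole skin, fewer cells of a type and less RNA per cell cannot be told apart.

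A miRNA is cut from a hairpin transcript and guides the Argonaute complex to messenger RNAs, mainly through its seed near the 5′ end. miR-3960 and miR-2861 come from neighbouring hairpins and are known from mouse osteoblasts, where they promote differentiation. No role in skin is assigned here to miR-5126, miR-5107-5p, miR-5112 or miR-6366.

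The sequences show how G- and C-rich these miRNAs are and where the probes bind. They are from RefSeq, build GRCm38.p6. Capitals in the Mir3960 hairpin mark the stretch complementary to the longer of its 2 probes, and capitals in the mature miRNAs mark the seed, bases 2 to 8. miR-2861 is shown because it neighbours miR-3960 and, as described below, varied with miR-5126 across arrays.
Mir3960 hairpin, chr2:32712900-32712972, minus strand: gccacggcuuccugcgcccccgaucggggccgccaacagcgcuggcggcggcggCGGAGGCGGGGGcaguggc
mmu-miR-5126, chr1:84695890-84695911, plus strand: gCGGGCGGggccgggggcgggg
mmu-miR-6366, chr16:18165093-18165114, minus strand: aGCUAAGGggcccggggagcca
mmu-miR-2861, chr2:32712819-32712837, minus strand: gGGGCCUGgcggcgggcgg

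G and C made up 82.2% of the Mir3960 hairpin, 100% of mature miR-5126, 72.7% of miR-6366 and 94.7% of miR-2861. The seeds of miR-5126 and miR-6366 were shared with 0 other mature miRNAs of the RefSeq table, and that of miR-2861 with 1, miR-3091-3p. The seeds of the listed miRNAs shown differ from each other. In the annotation, Mir3960 lies 11 bases from Mir2861 and 115 bases from Cdk9, which encodes a kinase of transcription elongation. Mir5126 lies within the span of Dner, a gene for a transmembrane protein with EGF-like repeats, 306 bases from one end of that gene. Mir6366 overlaps no annotated gene.

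Each miRNA was read by 2 probes, the longer with 1 extra base, and these probes are shown because they set what the array can tell apart.
miR-3960 probes, shorter: cccccgcctcc
miR-3960 probes, longer: cccccgcctccg
miR-5126 probes, shorter: ccccgccccc
miR-5126 probes, longer: ccccgcccccg
miR-6366 probes, shorter: tggctccccgg
miR-6366 probes, longer: tggctccccggg

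The miR-5126 and miR-6366 probes are complementary to the 3′ end of the mature miRNA and do not cover its seed. GC content of the 2 probes was 90.9% and 91.7% for miR-3960, 100% for both miR-5126 probes, 81.8% and 83.3% for miR-6366, 69.2% and 64.3% for miR-5107-5p, and 75% and 69.2% for miR-5112. Over all 4415 probes the median GC content was 53.3%, and 34 probes (0.770%) reached 90% or more. The median probe was 16 bases long, and only 46 probes had 10 bases or fewer, among them the shorter miR-5126 probe. Each of the printed probe sequences was found in the probes of 1 miRNA only.

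Levels are given as log2 of the miRNA's summed processed intensity after division by the array's 75th percentile over probes detected on all 8 arrays, so 0 is that percentile. miR-3960 had levels of 1.58, 1.94, 2.10 and 2.48 in NcstnΔKC skin (replicates 1 to 4), against 3.03, 2.77, 0.0086 and 0.11 in normal skin. Normal 1 and 2 were above every NcstnΔKC array, and normal 3 and 4 were below every NcstnΔKC array. The NcstnΔKC arrays spanned 1.87-fold and the normal arrays 8.14-fold. Its SD was 0.37 in NcstnΔKC skin and 1.64 in normal skin, and the SD in normal skin was the highest of the 222 tested miRNAs.

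A ranking needs no scaling. By signal among all 1881 miRNAs, miR-3960 ranked 32, 24, 21 and 17 on the NcstnΔKC arrays, against 11, 18, 64 and 63 on the normal arrays. The deposited series matrix, in log2 values whose normalization is not given, placed it at 10.69, 11.18, 11.29 and 11.65 in NcstnΔKC skin, against 12.26, 11.88, 9.08 and 9.22 in normal skin. Normal 3 and 4 were below all NcstnΔKC arrays by both measures. Normal 1 and 2 were above all of them in the series matrix, while by rank NcstnΔKC 4 came just ahead of normal 2.

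miR-5126 had levels of 1.88, 1.85, 1.46 and 1.7 in NcstnΔKC skin, against 2.30, 2.61, 0.35 and 0.49 in normal skin. Its normal arrays were ordered like those of miR-3960 in that replicates 1 and 2 lay above, and 3 and 4 below, every NcstnΔKC array. The span was 1.34-fold over the NcstnΔKC arrays and 4.78-fold over the normal arrays. The SD was 0.19 in NcstnΔKC skin and 1.18 in normal skin, which ranked 15 of 222.

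miR-5107-5p was close to background, and its levels were -3.87, -3.83, -3.82 and -3.33 in NcstnΔKC skin, against -2.87, -1.99, -3.36 and -3.18 in normal skin. It was detected on 3 NcstnΔKC arrays and on all 4 normal arrays. Normal 2 was the highest array, and NcstnΔKC 4 lay within the range of the normal arrays. The normal arrays spanned 2.58-fold (SD 0.61) and the NcstnΔKC arrays 1.44-fold (SD 0.25).

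miR-5112 had levels of -4.64, -4.68, -4.97 and -4.36 in NcstnΔKC skin, against -3.30, -3.01, -3.99 and -4.23 in normal skin. It was detected on 0 NcstnΔKC arrays and on 4 normal arrays, and the value of NcstnΔKC 3 is the floor set for dim miRNAs. Every normal array was above every NcstnΔKC array, with normal 1 and 2 again above normal 3 and 4. The normal arrays spanned 2.34-fold.

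miR-6366 behaved differently. Its levels were 6.40, 6.55, 6.60 and 6.59 in NcstnΔKC skin, against 5.62, 6.24, 6.13 and 6.02 in normal skin. All NcstnΔKC arrays were above all normal arrays, and normal 1 was the lowest array instead of one of the highest. The NcstnΔKC arrays spanned 1.15-fold and the normal arrays 1.53-fold.

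**Figure D1:**
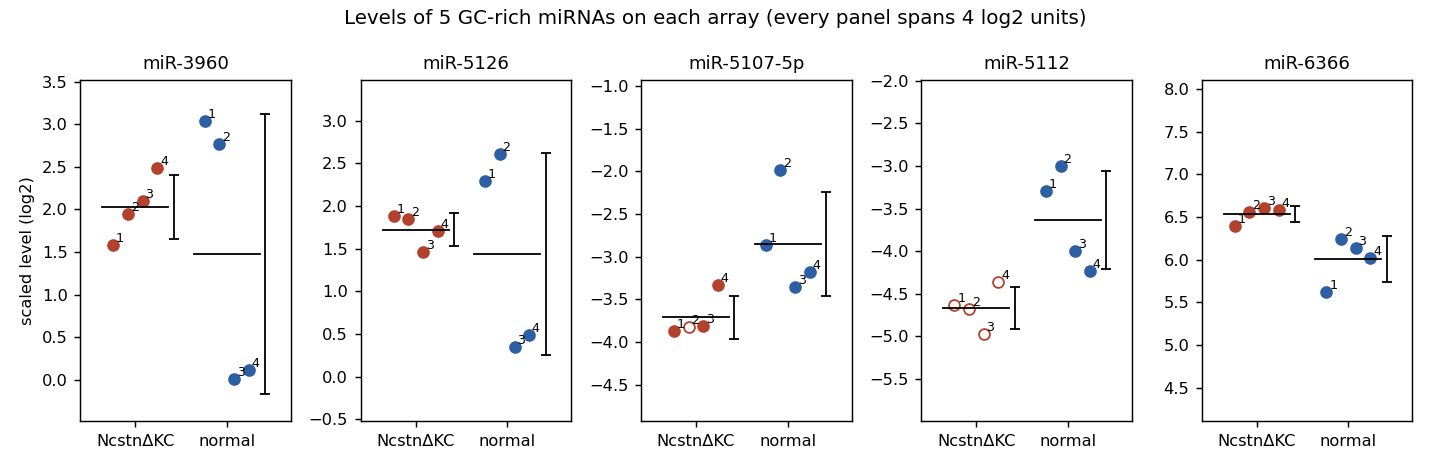
Scaled log2 level (0 is the array's 75th percentile) of each miRNA on the 4 NcstnΔKC and 4 normal arrays, numbered by replicate; horizontal bars are group means, vertical bars ± SD, and open circles arrays on which the miRNA was not detected. Normal 1 and 2 lie above and normal 3 and 4 below the NcstnΔKC arrays for miR-3960 and miR-5126, and the groups do not overlap for miR-5112 and miR-6366.

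The name of the list, miRNAs that vary within groups, fitted its members unequally. The SD pooled within groups was 1.19 for miR-3960 and 0.85 for miR-5126, which ranked 6 and 25 among the 222 tested miRNAs, whose median was 0.31. It was 0.47 for miR-5107-5p and 0.44 for miR-5112, at ranks 65 and 72. For miR-6366 it was 0.20, at rank 161, below the median. With the scaling used here, the wide spread lay in normal skin, and the NcstnΔKC SDs of miR-3960 and miR-5126 ranked 73 and 155. Over all tested miRNAs the median SD was 0.26 in NcstnΔKC skin and 0.27 in normal skin.

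**Figure D2:**
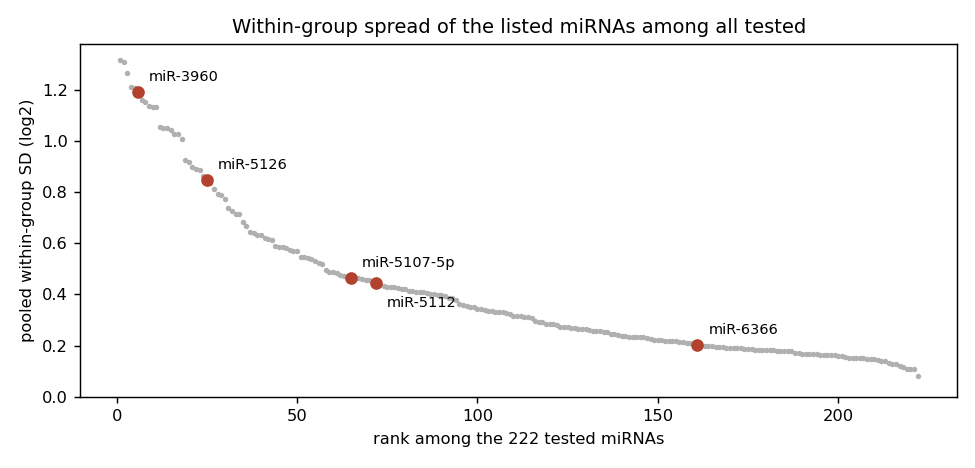
Pooled within-group SD of log2 level (vertical axis) of the 222 tested miRNAs, ordered by rank (horizontal axis), with the 5 listed miRNAs in red. miR-3960 and miR-5126 are at ranks 6 and 25, while miR-6366 is at rank 161.

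The 2 probes of each miRNA were compared array by array. Across the 8 arrays their log2 scaled signals had a Pearson r of 0.9996 for miR-3960, 0.997 for miR-5126, 0.997 for miR-6366 and 0.960 for miR-5107-5p. For miR-5112 r was 0.918 over the 7 arrays on which both probes were above 0. The 2 probes of a miRNA share target, array and nearly all of their bases and are not replicates.

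Single probes carried the spread of miR-3960. Its shorter probe had mean processed intensities of 1735, 1784, 2280 and 2954 on NcstnΔKC arrays, against 5263, 4135, 593 and 700 on normal arrays. Its longer probe had 1737, 1762, 2259 and 3033 on NcstnΔKC arrays, against 5178, 4138, 646 and 721 on normal arrays. Each probe had 15 spots per array, of which 13 to 15 were used for miR-3960, and the coefficient of variation between spots was 1.22% to 9.47%. The spread between normal arrays was therefore far larger than the spread between spots of an array.

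The other members were read probe by probe in the same way. The normal arrays spanned 2.34 and 2.20 log2 units by the shorter and the longer miR-5126 probe. The spot coefficient of variation for miR-5126 was 1.52% to 4.36%. For miR-6366 both probes spanned 0.62 over the normal arrays. The shorter miR-5107-5p probe had 0 spots well above background on every NcstnΔKC array and on normal 3, and its spot coefficient of variation reached 45.5%. The shorter miR-5112 probe had 1 spot well above background on normal 2 and 0 on the other arrays, so miR-5112 rests on its longer probe.

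**Figure D3:**
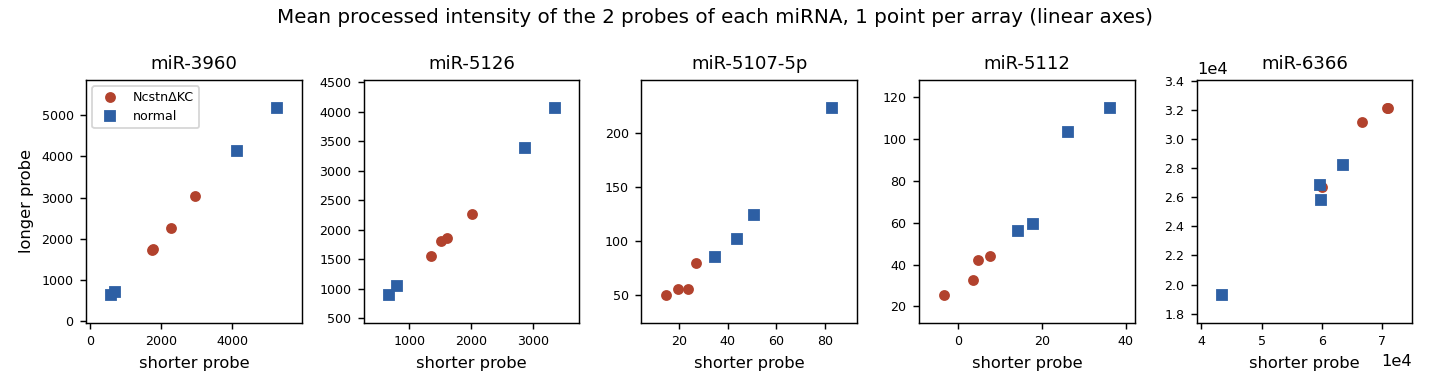
Mean processed intensity (linear axes, arbitrary scanner units) of the longer probe against the shorter probe of each miRNA, 1 point per array, NcstnΔKC as red circles and normal as blue squares. The points lie close to a line for miR-3960, miR-5126 and miR-6366, and the 4 normal points of miR-3960 split to the top and bottom of the plot.

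Whether the miRNAs varied together was described by correlating their 8 deviations from the group means (n = 8 arrays, 4 per group). The arrays share 1 slide, the scaling is common to all miRNAs, and the 4 normal arrays carry most of the deviation. miR-3960 and miR-5126 had Pearson r 0.93 and Spearman rho 0.76, and r was 0.88 without the 2 farthest arrays. Here and below, these are the 2 arrays farthest from the median of 1 miRNA of the pair, the one named first in the opening list. The arrays left out therefore differ between pairs. miR-3960 and miR-5112 had r 0.88 and rho 0.86, and miR-5126 and miR-5112 had r 0.91 and rho 0.90. Without the 2 farthest arrays r was 0.90 and 0.87 for these pairs. miR-5112 was detected on no NcstnΔKC array, so its values there lie at or near the floor. miR-5107-5p had r 0.76 with miR-3960, 0.78 with miR-5126 and 0.85 with miR-5112, but its r with miR-5126 was 0.39 without the 2 farthest arrays.

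The 6 pairs among these 4 miRNAs had a median r of 0.87. All 10 pairs of the list, miR-6366 included, had a median of 0.77, from -0.30 to 0.93. Over all 24531 pairs of tested miRNAs the median r was 0.011, and 8.23% of pairs reached the lowest of the 6 values. The list was chosen by its spread on these arrays, and miR-6366 was set apart with its values known. The share is therefore a description and no test of shared variation. With the scaling used here miR-6366 did not follow the other 4: its r was -0.30 with miR-3960, -0.25 with miR-5126, 0.30 with miR-5107-5p and -0.09 with miR-5112. Without the 2 farthest arrays, chosen by the other miRNA of each pair and so not the same for all 4, these became 0.69, -0.76, -0.66 and -0.67. The weak values thus depend on which arrays are kept.

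Within NcstnΔKC skin the order was shared by some of the miRNAs. miR-3960 and miR-5107-5p were both lowest on NcstnΔKC 1 and highest on NcstnΔKC 4. For miR-5107-5p, NcstnΔKC 1, 2 and 3 were nearly level, and it was not detected on NcstnΔKC 2. miR-5112 was highest on NcstnΔKC 4 too, but it was detected on no NcstnΔKC array. In the series matrix it was highest on NcstnΔKC 1, at 4.11, against 3.95 on NcstnΔKC 4. By contrast, miR-5126 was highest on NcstnΔKC 1 and lowest on NcstnΔKC 3.

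**Figure D4:**
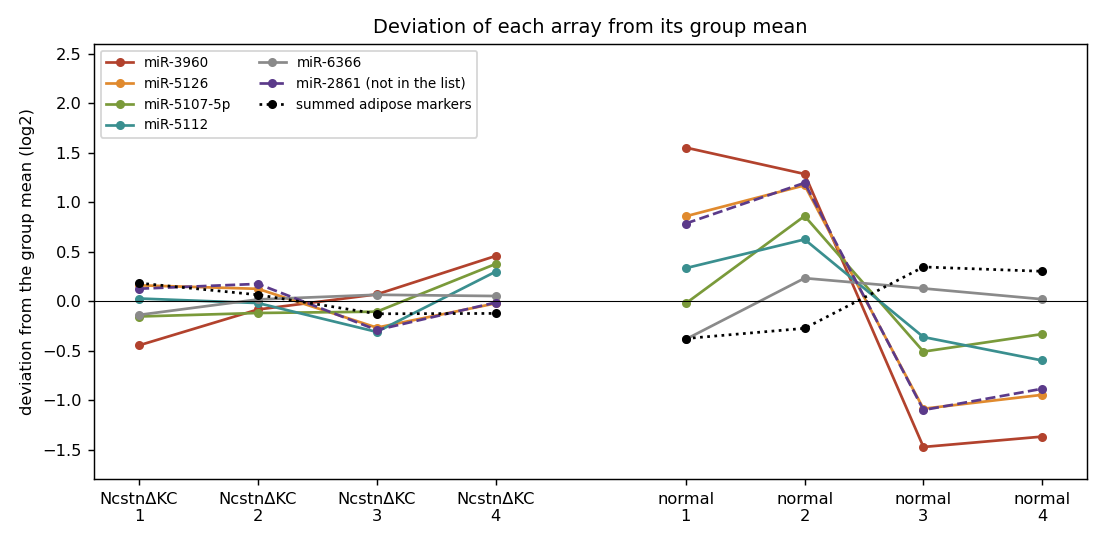
Deviation of each array from its group mean (log2) for the 5 miRNAs, for miR-2861 (dashed) and for the summed adipose markers (dotted); lines join the values of 1 quantity and stand for no order of the arrays. miR-3960, miR-5126 and miR-2861 are above their mean on normal 1 and 2 and below it on normal 3 and 4, and the adipose markers are below on normal 1 and 2 and above on normal 3 and 4.

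By a stated rule, the tested miRNAs outside the list with the highest Pearson r with the mean deviation of the 5 members were named. They were miR-2861 (0.96), miR-6973b-5p (0.96), miR-211-3p (0.95), miR-8110 (0.95) and miR-148a-3p (0.95). miR-2861, the neighbour of miR-3960, had levels of -1.53, -1.48, -1.95 and -1.67 in NcstnΔKC skin, against -0.71, -0.29, -2.59 and -2.37 in normal skin. Its r was 0.998 with miR-5126, which lies on another chromosome, and 0.92 with miR-3960. The probes of miR-2861 and miR-5126 have no sequence in common as whole probes but are all made of G and C. Mature miR-2861 ends, where its probes bind, in the bases gcgggcgg, with which mature miR-5126 begins. miR-5126 was the brighter of the 2 on every array. Whether the miR-2861 probes also bind miR-5126 was not tested, so their r may not describe 2 separate miRNAs.

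miR-8110 had levels of 1.81, 3.04, 2.59 and 2.98 in NcstnΔKC skin, against 2.70, 3.0, 0.43 and 0.54 in normal skin. Normal 3 and 4 were again the lowest arrays, but normal 1 and 2 lay within the NcstnΔKC range. miR-148a-3p had levels of -1.61, -1.53, -1.37 and -1.52 in NcstnΔKC skin, against -0.57, -0.39, -1.22 and -1.30 in normal skin, so there all normal arrays were above the NcstnΔKC arrays. The 3 miRNAs with the lowest r were miR-7042-5p (-0.94), miR-30d-5p (-0.94) and miR-1897-3p (-0.93). miR-7042-5p had levels of -0.31, -0.54, 0.11 and 0.40 in normal skin, with normal 3 and 4 above normal 1 and 2.

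The pattern was also counted among GC-rich miRNAs outside the list. Of the 79 non-members with at least 70% G and C in the mature sequence, 13 were tested, with a median r of 0.80 with the members' mean deviation. Of those 13, 6 (46.2%) had r of 0.8 or more, beside 23 of all 217 tested non-members (10.6%) and 14 of 172 with less G and C (8.14%). The median pooled SD was 0.58 in the 13 and 0.27 in the 172. Normal 1 and 2 were both at least 1 log2 unit above normal 3 and 4 for 4 of the 13 (30.8%), for 8 of the 172 (4.65%) and for 15 of the 217 (6.91%). Mature sequences were at hand for 187 of the 222 tested miRNAs, and these shares were not tested.

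High GC content was not shared by every miRNA with the pattern. miR-721, at 42.9% G and C, had an r of 0.93, and miR-3473f, at 45%, had 0.81; both were picked after their values were seen. A list of 45 miRNA names chosen as GC-rich had 17 tested members, not all of which are GC-rich by sequence, and 7 of them (41.2%) had r of 0.8 or more. For naming, this list was pooled with the 13 tested non-members with at least 70% G and C. The 4 brightest of the pool were miR-3963 (r -0.14), miR-8110, miR-5100 (0.80) and miR-1224-5p (-0.10).

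The groups were compared with limma over all 222 tested miRNAs, with Benjamini-Hochberg adjustment and a threshold of 0.05. The members were chosen with their within-group spread known, and that spread enters the test, so its p-values are read with this limit. By this rule 42.8% of all tested miRNAs (95 of 222) changed, 14.9% higher and 27.9% lower in NcstnΔKC skin. Of the 5 listed miRNAs, 3 passed, 1 higher and 2 lower, which in a list of 5 is not a result about the list. NcstnΔKC and normal arrays did not overlap for 2 of the 5, beside 36.9% of all tested miRNAs. Over all tested miRNAs the median difference was -0.23 on the log2 scale.

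The 2 miRNAs with the widest spread gave no group difference that passed. miR-3960 averaged 2.03 ± 0.37 in NcstnΔKC skin and 1.48 ± 1.64 in normal skin (SD, n = 4 each). The log2 difference was 0.55 ± 0.72 (SE), with a 95% interval of -1.09 to 2.19 and a limma adjusted p of 0.545. The interval leaves room for a higher as well as for a lower level in NcstnΔKC skin. The direction depended on the scale of averaging: the ratio of the groups' mean scaled signals, NcstnΔKC over normal, was 0.976 by the shorter and 0.980 by the longer probe. miR-3960 passed in 0 of 25 alternative analyses.

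miR-5126 averaged 1.72 ± 0.19 in NcstnΔKC skin and 1.44 ± 1.18 in normal skin (SD, n = 4 each). The log2 difference was 0.29 ± 0.52 (SE), with a 95% interval of -0.89 to 1.46 and a limma adjusted p of 0.660. The ratio of mean scaled signals, NcstnΔKC over normal, was 0.998 and 0.948 by the shorter and the longer probe. The log2 difference turned to -0.08 without normal 3, to -0.03 without normal 4 and to -0.02 with spike-in scaling. miR-2861 likewise gave a log2 difference of -0.17 ± 0.51 (SE), with a limma adjusted p of 0.778.

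miR-5107-5p and miR-5112 were lower in NcstnΔKC skin. Both entered the tested set only through normal skin, where they were detected on all 4 arrays. Such a filter favours dim miRNAs that are higher in normal skin, so their p-values are read with that limit. miR-5112 averaged -4.66 ± 0.25 in NcstnΔKC skin, where it was detected on no array, and -3.63 ± 0.57 in normal skin (SD, n = 4 each). The log2 difference was -1.03 ± 0.29 (SE), with a limma adjusted p of 0.0214. By its longer probe alone, with undetected arrays set at least to the dimmest detected probe of the array, it was at least 1.44-fold lower in NcstnΔKC skin. With a floor 2 times as high the log2 difference was -0.41 and did not pass. The adjusted p was 0.0506 without NcstnΔKC 2 and 0.0661 without NcstnΔKC 3. miR-5107-5p averaged -3.71 ± 0.25 in NcstnΔKC skin and -2.85 ± 0.61 in normal skin (SD, n = 4 each). Its log2 difference was -0.87 ± 0.30 (SE), with a 95% interval of -1.55 to -0.18 and a limma adjusted p of 0.0450.

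The call for miR-5107-5p was narrow: with 1 array left out it passed in 2 of 8 fits, those without NcstnΔKC 4 and without normal 3, and the adjusted p ranged from 0.0359 to 0.104. The log2 difference was 0.0042 for miR-5107-5p and -0.21 for miR-5112 when the 75th percentile was taken over all probes. It was -0.43 and -0.34 with cyclic loess, and none of these 4 values passed.

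The scanner software's own totals reversed both. For miR-5107-5p the deposited total gene signal was 1234, 960, 916 and 1110 on NcstnΔKC arrays, against 37.0, 65.1, 25.5 and 30.8 on normal arrays. The totals of its own 2 probes summed to 16.9, 13.7, 16.0 and 22.5 on NcstnΔKC arrays, against 37.0, 65.1, 25.5 and 30.8 on normal arrays. The software's total thus exceeded the sum of the probes on all 4 NcstnΔKC arrays and equalled it on all 4 normal arrays, and a log2 difference taken from it was 4.99. For miR-5112 the totals were 72.7, 142, 2.94 and 179 on NcstnΔKC arrays, against 44.3, 32.1, 39.9 and 45.6 on normal arrays, while its probes summed to 9.90, 7.62, 4.70 and 11 on NcstnΔKC arrays, against 27.5, 32.1, 16.4 and 14.9 on normal arrays. For miR-3960, miR-5126 and miR-6366 total and sum were equal on all 8 arrays after rounding to 3 digits. On each array 21 to 44 of the tested miRNAs had a total more than 2 times the sum of their probes.

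miR-6366 was higher in NcstnΔKC skin. It averaged 6.54 ± 0.09 in NcstnΔKC skin and 6.0 ± 0.27 in normal skin (SD, n = 4 each). The log2 difference was 0.53 ± 0.16 (SE), a 1.45-fold higher level with a limma adjusted p of 0.0310. The 2 probes gave 0.52 and 0.56. Before scaling the shorter probe read 66673, 59921, 70868 and 70828 on NcstnΔKC arrays, against 43367, 63455, 59610 and 59772 on normal arrays, so the groups overlapped, and the unscaled log2 difference of 0.27 did not pass. No spot was saturated on any array.

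The call for miR-6366 also depended on single arrays: it passed in 2 of 8 fits with 1 array left out, those without NcstnΔKC 1 and without normal 2. Among the others the adjusted p was 0.0640, 0.0891 and 0.0701 without NcstnΔKC 2, 3 and 4, and 0.0515, 0.050 and 0.0630 without normal 1, 3 and 4. Quantile normalization gave a difference of 0, because the miRNA had the highest signal on every array and that method gives the top rank the same value everywhere.

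**Figure D5:**
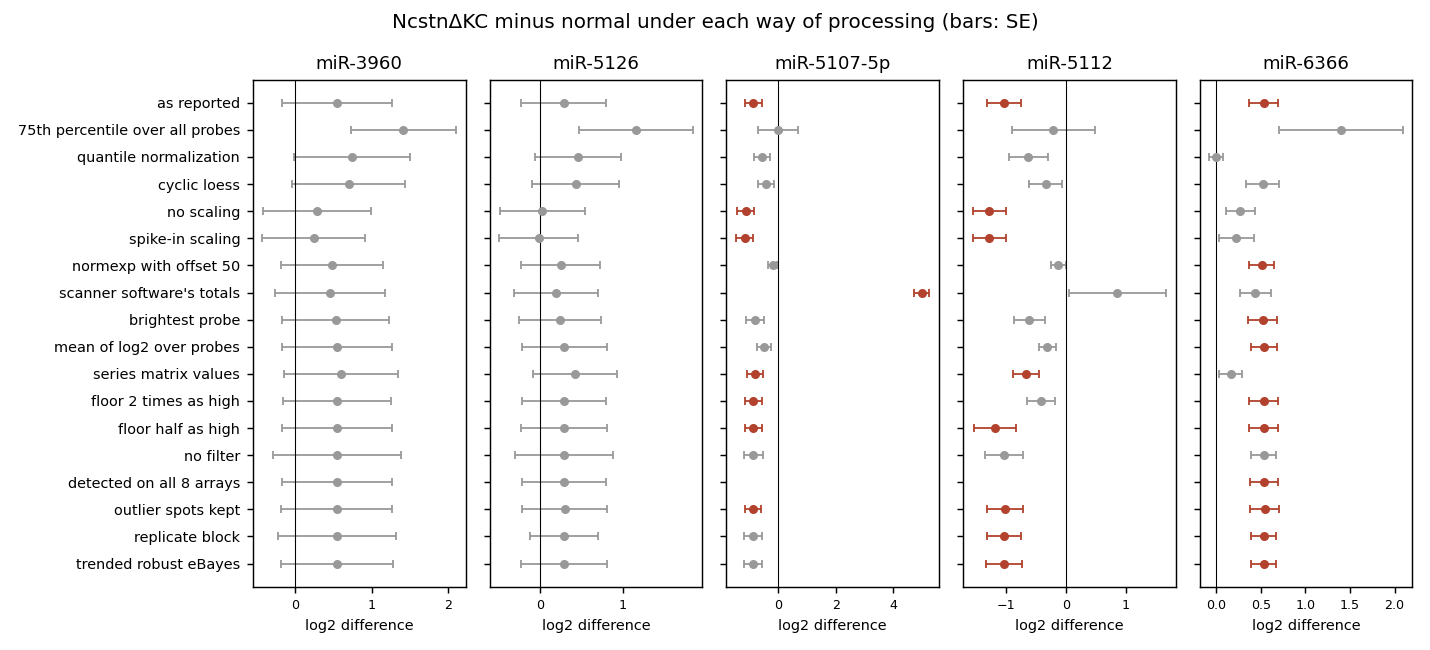
Log2 difference, NcstnΔKC minus normal (horizontal axis, bars are SE), of each miRNA under each way of processing (rows); red marks a limma adjusted p below 0.05, and an empty place means that the miRNA was not in that fit. miR-3960 and miR-5126 are grey in every row, and miR-5107-5p stands at 4.99 with the scanner software's totals.

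Relative to the median of all tested miRNAs, the differences were 0.78 for miR-3960, 0.52 for miR-5126, -0.63 for miR-5107-5p, -0.80 for miR-5112 and 0.76 for miR-6366. Other scalings moved that median from -0.23 to values between -0.54 with spike-in scaling and 0.64 with the percentile over all probes.

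Measures of whole arrays were set beside the spread. The scaling percentile was 1160, 922, 1061 and 1070 on NcstnΔKC arrays, against 1275, 1215, 1231 and 1314 on normal arrays, and its groups did not overlap (exact two-sided permutation p = 0.0286, the smallest that 70 labelings allow, adjusted p = 0.1 over 7 measures). Outlier miRNA spots did not overlap either, with 2315, 2418, 2404 and 2223 on NcstnΔKC arrays, against 2476, 2940, 2721 and 2531 on normal arrays (exact permutation p = 0.0286, adjusted p = 0.1). Local background, the negative controls' mean and SD and the spike-in mean gave adjusted p of 0.48 or more by the same test. Detected miRNAs numbered 223, 198, 210 and 238 on NcstnΔKC arrays, against 258, 273, 235 and 241 on normal arrays (exact permutation p = 0.0571, adjusted p = 0.133). Normal 1 and 2 thus had more detected miRNAs than normal 3 and 4, whereas the scaling percentile put normal 4 highest and normal 2 lowest of the normal arrays. The mean spike-in intensity was 3611 and 3584 on normal 1 and 2, and 3445 and 3236 on normal 3 and 4. The part of these measures in the spread was not tested. NcstnΔKC arrays filled row 1 and normal arrays row 2 of the slide, so the row and the group cannot be told apart. Within each row the slide position equalled the replicate number. Normal 1 and 2 thus lay at positions 1 and 2, and normal 3 and 4 at positions 3 and 4. The split of the normal arrays and the slide position cannot be told apart either.

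Markers of other cell types were set beside the members. The summed level of 3 adipose miRNAs, all 3 detected on every array, was -0.06, -0.18, -0.37 and -0.37 in NcstnΔKC skin, against 0.28, 0.38, 1.0 and 0.96 in normal skin. It was higher on normal 3 and 4 than on normal 1 and 2, opposite to miR-3960, and its r was -0.98 with the deviations of miR-3960 and -0.90 with the members' mean deviation. The summed level of 5 striated muscle miRNAs, all 5 tested, was 5.27, 2.69, 3.70 and 3.72 in NcstnΔKC skin, against 4.14, 5.67, 6.40 and 6.10 in normal skin, with an r of -0.63 with miR-3960 and -0.47 with the members' mean deviation. That of 7 keratinocyte miRNAs, all detected on every array, lay between 4.51 and 4.92 in NcstnΔKC skin and between 4.49 and 4.78 in normal skin, so the labelled tissue showed its markers on all arrays. Its members went in opposite directions. The log2 difference was -0.68 for miR-203-3p, -0.74 for miR-200a-3p, -0.58 for miR-200b-3p and -0.81 for miR-429-3p, all of which passed. It was 0.47 for miR-205-5p, 0.30 for miR-141-3p and 0.12 for miR-200c-3p, none of which passed. The part of these cell types in the spread was not tested.

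The remaining lists were described in the same way. The r with the members' mean deviation was -0.41 for keratinocyte, -0.12 for white blood cell (5 of 5 tested), 0.54 for red blood cell (2 of 3 tested), 0.49 for fibroblast and smooth muscle (4 of 4 tested) and -0.47 for endothelial miRNAs (1 of 2 tested). Their summed levels ranged from 1.46 to 3.08 in NcstnΔKC and 0.90 to 1.38 in normal skin for white blood cells, and from 0.08 to 1.5 in NcstnΔKC and -0.54 to 0.88 in normal skin for red blood cells. The fibroblast and smooth muscle sum ranged from 2.89 to 3.50 in NcstnΔKC and 2.25 to 2.68 in normal skin, and the endothelial sum from 1.46 to 1.75 in NcstnΔKC and 1.25 to 1.62 in normal skin. The brightest markers of the 7 lists were miR-205-5p, miR-1a-3p, miR-451a, miR-223-3p, miR-199a-3p, miR-126a-3p and miR-378a-3p. Signals were summed before log2 was taken, so a sum mostly follows its brightest markers. Members of a list could differ in direction. The log2 difference was 0.69 for miR-199a-3p and 1.21 for miR-214-3p, but -0.52 for miR-143-3p and -1.14 for miR-145a-5p. Among red blood cell miRNAs it was 0.53 for miR-451a and -1.91 for miR-486a-5p.

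The spread was recomputed under the other settings. Over 14 ways of scaling, background correction and summarising, the normal range was 2.85 to 3.30 log2 units for miR-3960 and 1.98 to 2.27 for miR-5126. The lower of normal 1 and 2 exceeded the higher of normal 3 and 4 by 2.35 to 2.74 for miR-3960 and by 1.60 to 1.91 for miR-5126. The r between the 2 miRNAs was 0.87 to 0.95. With miR-3960, miR-5112 had an r of 0.94 at most, but 0.69 with a lower floor and -0.079 with the scanner software's totals. The r of miR-6366 with miR-3960 was 0.50 with the percentile over all probes and 0.47 with cyclic loess. It was negative in the other settings that gave an r, down to -0.42 with spike-in scaling. When scaled to a percentile of all probes, NcstnΔKC arrays spread widely as well, over 2.58 for miR-3960 and 2.73 for miR-5126, beside normal ranges of 3.30 and 2.19. As reported the NcstnΔKC ranges were 0.90 and 0.43. For miR-5112 the range was 0.50 to 1.31, and normal 1 and 2 were not above normal 3 and 4 in every setting, with a gap between -0.47 and 0.98. For miR-5107-5p the range was 0.70 to 1.44.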

How the data were processed

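The 8 scanner files hold spot values made by Agilent Feature Extraction 10.7.1.1, with positions on mm9, per the file headers. Processed intensity is background-subtracted and detrended, with no scaling between arrays, per the file headers. The series matrix, as deposited, gives log2 values whose normalization, centring and scale are not given in the sources used here (medians 3.24 to 3.25). Of 56430 miRNA spots per array, outlier spots (2223 to 2940) were left out. Each probe's mean intensity was scaled to the 75th percentile, taken per array over the 301 probes detected on all 8 arrays (at least 50% of spots well above background), probes were summed per miRNA, values below a floor of 0.0318 were raised to it, and log2 was taken. The 222 miRNAs with detection on every array of 1 group or both were fitted with limma 3.58.1 in R 4.3.3 (lmFit, eBayes, Benjamini-Hochberg adjustment), which was tested on simulated data. The number of arrays limits the precision.

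The members and the marker and GC-rich lists were chosen with earlier results of these data known. Besides the members, the named miRNAs are those with the 5 highest and 3 lowest r with the members' mean deviation. Also named are the 4 brightest of the GC-rich name list pooled with the tested non-members with at least 70% G and C. The brightest of each marker list is named too. miR-5107-5p and miR-5112 are described without sequence. Same-numbered arrays had deviations correlated at -0.44, 0.20, -0.26 and -0.23, which cannot show whether the samples are paired. The labels state no pairing, so the samples were fitted as unpaired, although same-numbered arrays shared a slide position. Alternatives were other scalings, background corrections, summaries, floors and filters, and leaving out each array.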

Additional observations from a re-analysis of the deposited data

Results flagged for a closer look

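On 1 array a member stood apart from the other 3 of its group. miR-5107-5p had a log2 level of -3.33 on NcstnΔKC 4, against -3.87, -3.83 and -3.82 on NcstnΔKC 1, 2 and 3, and the gap to the nearest array made up 0.908 of the range, above Dixon's critical value for 4 samples. Members, probes and array measures gave 38 groups of 4 that were looked at, of which 1 stood out in this way, and chance alone gives about 1 in 20.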

How the results depend on the processing

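Log2 differences are NcstnΔKC minus normal. The 75th percentile over all probes gave 0.0042 for miR-5107-5p (reversed), -0.21 for miR-5112, 1.40 for miR-6366 and 12 called miRNAs, none of the 3 miRNAs passing. Quantile normalization gave -0.56, -0.63 and 0 for the same 3, and cyclic loess -0.43, -0.34 and 0.52, none passing. miR-6366 did not pass unscaled (0.27), with spike-in scaling (0.23) or in series matrix values (0.16), and miR-5126 reversed to -0.019 with spike-in scaling. Normexp gave -0.19 and -0.12 for miR-5107-5p and miR-5112, the brightest probe -0.81 and -0.61, and the mean of log2 values over probes -0.50 and -0.31, none passing. The software's totals gave 4.99 (limma adjusted p = 1.32e-05) and 0.86, both reversed, 0.44 for miR-6366 and 52 called miRNAs. A floor 2 times as high gave -0.41 for miR-5112, which did not pass. Without a filter on dim miRNAs 1881 were tested, 19 were called, and miR-5107-5p, miR-5112 and miR-6366 (-0.87, -1.03 and 0.53) did not pass. Requiring detection on all 8 arrays left 174 tested and 61 called, with miR-5107-5p and miR-5112 no longer among the tested. With a block for the replicate number, a pairing that the labels do not state, miR-5107-5p stayed at -0.87 but did not pass (limma adjusted p = 0.0940). Nor did it with a trended robust fit (-0.87, limma adjusted p = 0.0513). The block called 71 miRNAs.

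Leaving out 1 array at a time gave 0.055 to 1.06 for miR-3960, -0.076 to 0.68 for miR-5126 (-0.076 without normal 3, -0.030 without normal 4), -1.03 to -0.58 for miR-5107-5p, -1.23 to -0.82 for miR-5112 and 0.40 to 0.61 for miR-6366. The count of called miRNAs was 59 to 94, the lowest without NcstnΔKC 3. Of the called miRNAs, 34.7% were higher as reported, and the share was 100% for the all-probe percentile, 54.2% with quantile normalization, 57.7% with cyclic loess, 19.2% unscaled, 16.5% with spike-in scaling, 56.2% with normexp and 50% in series matrix values. The number of arrays, and levels near background for miR-5107-5p and miR-5112, limit what can be told apart.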
